A study of Mus musculus with 7 samples.

Results

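Described here are 10 genes for amino acid carriers of the plasma membrane, followed over erythroid differentiation and zinc restriction: Slc38a5, Slc38a1, Slc38a2, Slc1a4, Slc1a5, Slc7a5, Slc43a1, Slc3a2, Slc7a1 and Slc7a6. They were taken by symbol from a written list, and each matched 1 row in every library, so they are 10 of 55367 gene symbols. The list was made with earlier results of these data known, so its counts beside those of all genes are description only. The study sequenced messenger RNA of G1E-ER4 cells, a single mouse line of erythroid progenitors. The line has lost functional GATA1 and was given a fusion of GATA1 with the estrogen receptor's ligand-binding domain, which makes maturation depend on added estradiol. The series title names the zinc importer ZIP10. There was 1 library of undifferentiated cells at 0 h, without estradiol and without DTPA. There were 3 control libraries after 24 h with 100 nM β-estradiol, and 3 libraries after 24 h with 100 nM β-estradiol and 50 µM DTPA, a chelator of zinc and other metals, added when differentiation began. All cells grew in the same serum-containing medium with erythropoietin and Kit ligand. The labels call the replicates biological but do not say that they came from separate cultures, so the p-values measure the spread between these libraries.

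Amino acids cross the plasma membrane through carriers that differ in what they take and in what drives them. Sodium-coupled carriers of the SLC38 family and exchangers of the SLC1 family move glutamine and small neutral amino acids. Large neutral amino acids such as leucine are exchanged by SLC7 light chains that need the heavy chain SLC3A2 to reach the membrane, and arginine and lysine enter through cationic carriers. Erythroid precursors draw on this supply for globin synthesis, and they use glycine as a building block of heme. Several of the 10 genes are known targets of ATF4, the transcription factor of the amino acid response.

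Values are deposited TPM, in which reads are corrected for transcript length and library size. They allow levels of different genes to be compared within a library. Estimated depths were 17.59 to 21.2 M reads per library, so that 1 read in a transcript of 2 kb was worth 0.0696 to 0.0857 TPM. Metallothionein transcripts followed the zinc treatment: Mt2 was at 2752.4 ± 153 TPM (SD, n = 3) in the controls and at 12.6 ± 0.992 TPM under DTPA. All 20 erythroid markers reached 1 TPM. Their summed level was 14646.09 TPM at 0 h, 58030.21 to 62098.28 in the controls and 66532.04 to 84604.0 under DTPA. The higher sum under DTPA lay in the adult globins Hbb-bs (29508.3 TPM in the controls, 41304.2 under DTPA) and Hbb-bt (2293.8 and 11076.2). Of the 20 markers, 13 were lower and 5 higher under DTPA, with a median log2 fold change of -0.49. Over all tested genes 36.4% were lower and 21.7% higher, with a median of -0.09. With median-of-ratios scaling 11 markers were lower and 5 higher, with a median of -0.37. Of 15 megakaryocyte markers, 8 reached 1 TPM and 5, among them Ppbp, Gp6 and Vwf, were listed at 0 everywhere. Their sums were 93.71 TPM at 0 h, 123.99 to 126.29 in the controls and 217.12 to 228.53 under DTPA. The higher sum in the controls than at 0 h lay in Tubb1 (0.48 and 110.1 TPM), while 5 of 8 tested markers were lower in the controls and 1 was higher. Over all tested genes 24.3% were lower and 15.1% higher. Gp5, Itga2b and Pf4 were tested through their 0 h level alone and Tubb1 through its control level alone. The directions of these genes in that count therefore carry no weight. Under DTPA all 5 tested were higher than in the controls, beside 21.7% of all tested genes. Gp9, at 1.49, 0.97 and 0.58 TPM in the controls, was tested through its DTPA libraries, so its direction carries no weight. Myeloid and mast cell markers (18, of which 10 at 0 everywhere, including Mpo and Lyz2) summed to 16.79 TPM at 0 h, 3.41 to 3.86 in the controls and 3.72 to 5.8 under DTPA. Lymphoid markers (12, of which 8 at 0, including Cd3e) stayed at sums of at most 2.82 TPM and stromal, endothelial and epithelial markers (11, of which 6 at 0) at sums of at most 0.23 TPM. The part of these shifts in the results below was not tested, and in bulk libraries fewer cells of a type and less RNA per cell cannot be told apart.

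The order of the carriers changed with differentiation, and between controls and DTPA only Slc1a5 and Slc7a6 exchanged places among the detected genes. At 0 h the order of levels was Slc7a5, Slc3a2, Slc38a2, Slc7a1, Slc1a5, Slc1a4, Slc7a6 and Slc38a5, from 259 down to 3.47 TPM in the single library. In the controls it was Slc7a5, Slc38a5, Slc3a2, Slc1a5, Slc38a2, Slc7a6, Slc7a1 and Slc1a4, from 848 ± 4.12 down to 1.06 ± 0.326 TPM (SD, n = 3), and 2 neighbouring pairs overlapped between libraries, Slc1a5 with Slc38a2 and Slc7a6 with Slc7a1. Under DTPA it was Slc7a5, Slc38a5, Slc3a2, Slc7a6, Slc38a2, Slc1a5, Slc7a1 and Slc1a4, with no overlap between neighbours. Slc38a1 and Slc43a1 were at or near 0 in all 7 libraries. Summed over the 10 genes, the level was 717 TPM at 0 h, 1732.2 ± 9.9 TPM in the controls and 1179.6 ± 53.6 TPM under DTPA.

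**Figure D1:**
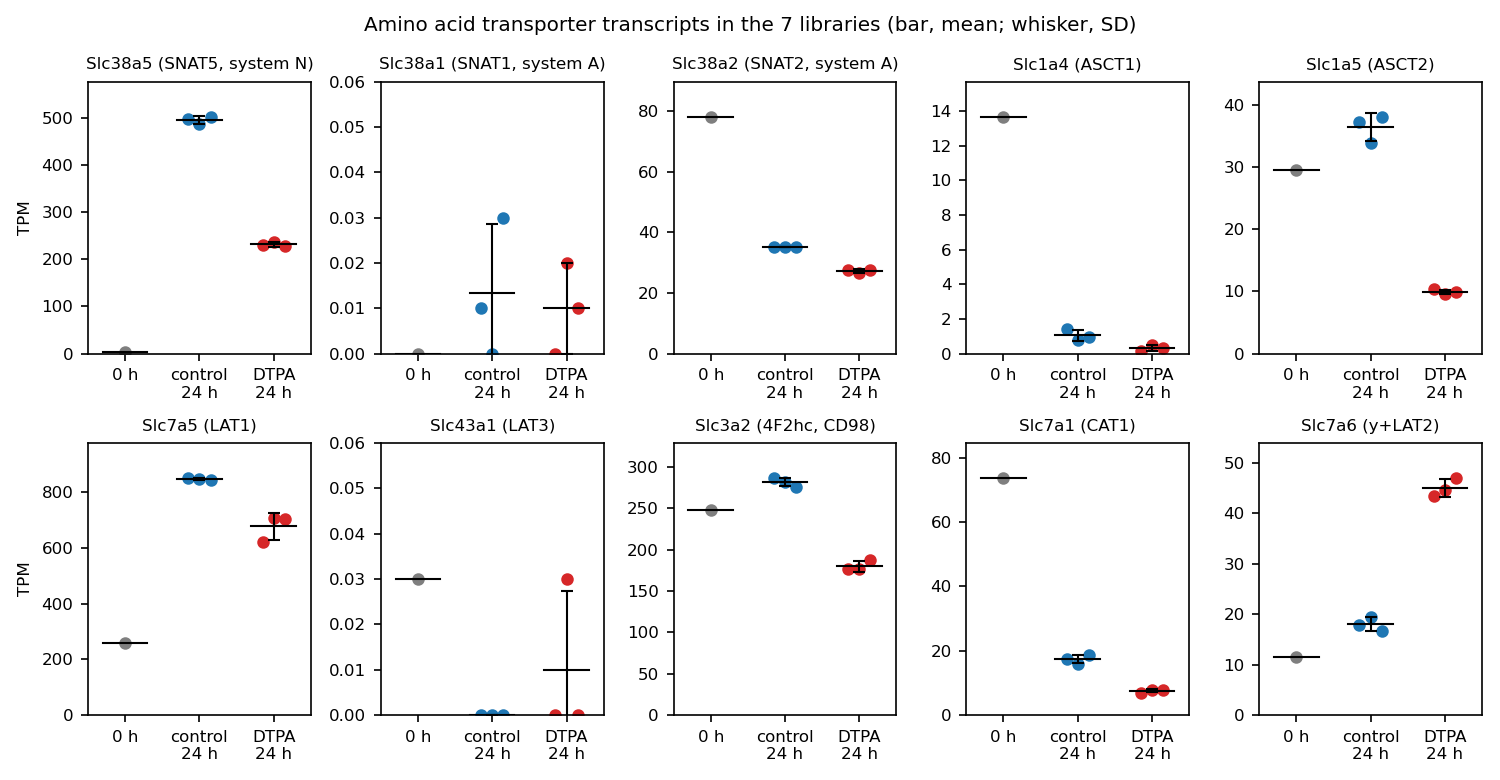
TPM of each of the 10 genes (vertical axes, each panel with its own scale from 0) at 0 h, in the 24 h controls and in the 24 h DTPA libraries. Each point is 1 library, the bar is the mean and the whisker the SD of 3 libraries. Slc38a5 goes from 3.47 TPM at 0 h to 495 TPM in the controls and 232 TPM under DTPA, Slc7a6 is highest under DTPA at 45.0 TPM, and Slc38a1 and Slc43a1 stay at 0.03 TPM or less.

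The first question was how these genes differed between the controls at 24 h and the 0 h library. Changes with differentiation refer to this comparison throughout. No library was kept for 24 h without estradiol, so effects of estradiol and of time in culture cannot be told apart. A gene was called when its limma adjusted p was under 0.05 and its log2 fold change of TPM + 1 was at least 1 in size. Slc38a5 and Slc7a5 rose, Slc38a2, Slc1a4 and Slc7a1 fell, and Slc1a5, Slc3a2 and Slc7a6 did not reach the minimum fold. That is 5 of 8 tested members called, where 39.4% of 11906 tested genes were called, 15.1% higher and 24.3% lower. The 0 h library has no replicate and was assumed to vary like the other groups.

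The second question was what DTPA did to cells that differentiated for the same 24 h. Slc38a5, Slc38a2, Slc1a5, Slc7a5, Slc3a2 and Slc7a1 fell and Slc7a6 rose (limma, adjusted p under 0.05). Thus 7 of 7 tested members were called, 6 lower and 1 higher, where 58.1% of 11147 tested genes were called, 36.4% lower and 21.7% higher. The libraries of control and DTPA did not overlap in any of the 7, against 65.0% of tested genes. The median log2 fold change was -0.64 over the 7 and -0.09 over all tested genes. Because the members were chosen with earlier results of these data known, these comparisons with all genes are no test of the list. These 7 genes were at 6.96 TPM or more in each 24 h library, so none passed the filter of 1 TPM in 3 libraries through 1 group alone. The shares over all genes include lower genes. With a filter of 5 TPM, 2048 of 8781 tested genes were higher and 3789 lower, a larger called share. The other 3 members, Slc38a1, Slc1a4 and Slc43a1, missed that filter. The balance of higher and lower calls over all genes depended on the scaling: 37.3% of the calls were higher as deposited, 50.9% with median-of-ratios scaling and 50.6% with quantile normalization. The members were called 6 lower and 1 higher under each of these scalings.

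Set against 0 h, the DTPA libraries had 3 of 8 tested members higher (Slc38a5, Slc7a6 and Slc7a5) and 4 lower (Slc1a4, Slc7a1, Slc38a2 and Slc1a5), while Slc3a2 did not reach the minimum fold. Slc1a4 entered this comparison through its 0 h value alone, so its count there carries no weight. Of 12016 genes tested there, 43.3% were called, 15.7% higher and 27.6% lower. This comparison shares its 0 h library with that of the controls, so the values are given side by side and not correlated.

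**Figure D2:**
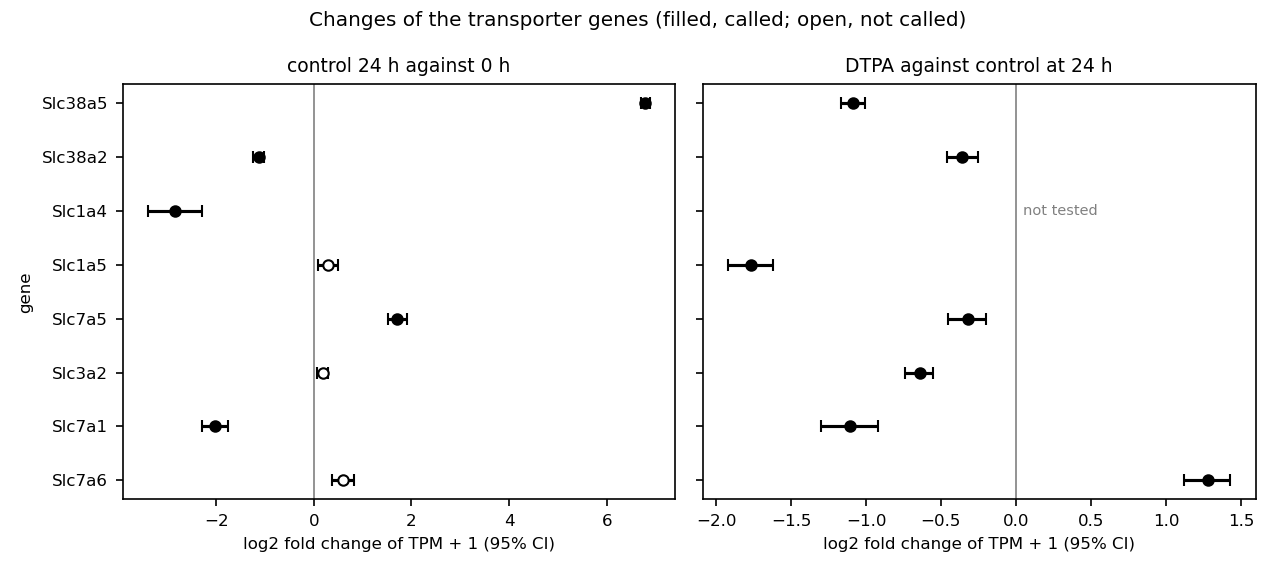
Log2 fold changes of TPM + 1 (horizontal axes, with different ranges) with 95% confidence intervals for the 8 detected genes, for control at 24 h against 0 h on the left and DTPA against control on the right. Filled points are called and open points are not; Slc38a5 spans from 6.79 on the left to -1.09 on the right, and Slc7a6 lies alone to the right of 0 in the right panel at 1.28.

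Slc38a5 encodes SNAT5, a sodium-coupled carrier of glutamine, asparagine, histidine, serine and glycine that exchanges a proton. It had the largest rise of the 10 genes with differentiation. The gene lies on chromosome X from 8271133 to 8280179 on the plus strand (GRCm38, GENCODE M21), and its value, like that of each member, sums reads over all exons of a protein-coding gene. The 120 bases directly before its start site in the RefSeq promoter table (GRCm38.p6, chrX:8271261-8271380, plus strand) are shown because this promoter belongs to the gene that moved most. Capitals mark an E-box. The RefSeq start lies inside the GENCODE span given above, so the bases shown fall within the gene as GENCODE annotates it.

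Slc38a5 upstream: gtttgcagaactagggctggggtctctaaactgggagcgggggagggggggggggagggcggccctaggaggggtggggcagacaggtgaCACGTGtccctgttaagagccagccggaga

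At 0 h Slc38a5 stood at 3.47 TPM, an estimated 46 reads. The controls held 497, 487 and 502 TPM and the DTPA libraries 231, 237 and 227 TPM, so that all controls lay above all DTPA libraries and both groups far above 0 h. The control mean was 143 times the 0 h value, and the log2 fold change was 6.79 ± 0.0383 (SE, limma adjusted p = 3.46e-08). With a low value at 0 h this fold depended on the pseudocount, with 7.12 at a pseudocount of 0.1 and 5.88 at 5. Under DTPA the mean was 232 ± 4.84 TPM against 495 ± 7.79 TPM in the controls, a log2 fold change of -1.09 ± 0.0349 (limma adjusted p = 3.27e-07). It thus remained 66.8 times the 0 h value.

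Slc38a2 (chromosome 15, 96687392 to 96699730, minus strand) encodes SNAT2, the system A carrier whose gene is known to be induced when amino acids are scarce. It was at 78.1 TPM at 0 h, at 35.2, 35.0 and 35.3 TPM in the controls and at 27.4, 26.6 and 27.6 TPM with DTPA. The level thus stepped down in each group, without overlap. From 0 h to control the log2 fold change was -1.13 ± 0.0444. Under median-of-ratios scaling it was -0.98 and so under the minimum fold. Under DTPA a further log2 fold change of -0.36 ± 0.0438 (limma adjusted p = 0.000291) was the second smallest of the 6 falls.

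Its neighbour on chromosome 15, Slc38a1 (96571418 to 96642913, minus strand), encodes the related system A carrier SNAT1. No library held more than 0.03 TPM of it, an estimated 3.0 reads, so no difference was detectable at this depth. SNAT2 was therefore the system A transcript of the pair that these cells held at a measurable level.

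Slc1a5 (chromosome 7, 16781340 to 16798274, plus strand) encodes ASCT2, an exchanger that brings glutamine in against other neutral amino acids. Its transcript had the largest fall of the tested members under DTPA. The 0 h library was at 29.5 TPM, the controls at 37.3, 33.9 and 38.0 TPM and the DTPA libraries at 10.3, 9.61 and 9.91 TPM. All DTPA libraries lay below the 0 h library as well as below the controls. The log2 fold change for DTPA against control was -1.77 ± 0.0635 (limma adjusted p = 5.73e-07), a 3.66-fold lower mean TPM. From 0 h to control it was 0.29 ± 0.0836, under the minimum fold.

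Slc1a4 (chromosome 11, 20302180 to 20332713, minus strand) encodes ASCT1, an exchanger of alanine, serine, cysteine and threonine. It went from 13.7 TPM at 0 h to 1.42, 0.79 and 0.96 TPM in the controls, a log2 fold change of -2.85 ± 0.223 (limma adjusted p = 7.42e-05). As for other low genes the pseudocount mattered, with -3.61 at 0.1 and -1.62 at 5. The DTPA libraries held 0.15, 0.52 and 0.32 TPM, an estimated 4.1 to 13.9 reads against 18.1 to 33.9 reads in the controls. They lay below all controls, but the gene missed the filter for that comparison; without a filter the log2 fold change was -0.63 ± 0.158 (adjusted p = 0.0265). The family pair thus differed at the differentiation step, where Slc1a4 fell and Slc1a5 was not called; the difference between the 2 genes was not tested.

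Slc7a5 encodes LAT1, which imports leucine and other large neutral amino acids in exchange for intracellular ones such as glutamine. It was the most abundant of the 10 transcripts in every library. On the minus strand of chromosome 8 it spans 121881150 to 121907694. The level was 259 TPM at 0 h, 850.2, 850.04 and 843 TPM in the controls and 622, 707 and 704 TPM under DTPA. Controls and DTPA libraries did not overlap, and DTPA replicate 1 was the lowest of the 6. From 0 h to control it rose 3.27-fold in mean TPM (log2 fold change 1.70 ± 0.078). DTPA lowered it 1.25-fold (log2 fold change -0.32 ± 0.0545, 95% confidence interval -0.45 to -0.2, limma adjusted p = 0.00149), the smallest of the 6 falls. With median-of-ratios scaling that fall was -0.2 (adjusted p = 0.014).

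Slc43a1 (chromosome 2, 84838850 to 84863594, plus strand) encodes LAT3, a facilitated carrier of large neutral amino acids that needs no heavy chain. It held 0.03 TPM at 0 h and in DTPA replicate 2 and was listed at 0 in the other 5 libraries. A change of this gene was not detectable at this depth. Its relative Slc43a2 was measurable and is given with the other carriers.

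Slc3a2 (chromosome 19, 8706882 to 8723369, minus strand) encodes the heavy chain of CD98, the partner that brings LAT1 and other light chains to the membrane. Its level was 247 TPM at 0 h, 286, 281 and 276 TPM in the controls and 176, 176 and 187 TPM under DTPA. The DTPA libraries lay below both the controls and the 0 h library. For DTPA against control the log2 fold change was -0.64 ± 0.0397 (limma adjusted p = 8.3e-06), a 1.56-fold lower mean TPM. For differentiation it was 0.18 ± 0.0479 (adjusted p = 0.0141), well under the minimum fold.

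Heavy and light chain transcripts therefore did not keep a fixed proportion. The ratio of Slc7a5 to Slc3a2 TPM was 1.05 at 0 h, 2.97, 3.02 and 3.05 in the controls and 3.54, 4.01 and 3.76 under DTPA. The groups did not overlap, and the ratio was 1.25-fold higher under DTPA, with log2 means of 1.91 ± 0.0916 against 1.59 ± 0.0191 (SD, n = 3; exact two-sided permutation p = 0.1). That p is the smallest that 3 against 3 libraries allow. It was the same, raw and Benjamini-Hochberg adjusted, in all 13 exact tests made of ratios and shares, none of which could reach 0.05.

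Of the 6 known light chain genes of SLC3A2, Slc7a5, Slc7a8 and Slc7a6 were expressed, while Slc7a7, Slc7a10 and Slc7a11 stayed under 1 TPM. Slc7a8 encodes LAT2, a neutral amino acid exchanger with a broader range than LAT1. It was at 75.8 TPM at 0 h, 53.8 ± 0.544 TPM in the controls and 182 ± 9.24 TPM under DTPA, with 1.74 ± 0.0465 as the log2 fold change of DTPA against control (limma adjusted p = 1.78e-07). Slc7a5 made up 74.5% of the summed light chain TPM at 0 h, 92.2% ± 0.14 in the controls and 74.9% ± 0.721 under DTPA. The share of Slc7a8 was 21.8%, 5.85% ± 0.0384 and 20.1% ± 0.513 in the same order, and that of Slc7a6 3.31%, 1.96% ± 0.142 and 4.98% ± 0.208. In each of these 3 shares control and DTPA libraries did not overlap (exact permutation p = 0.1). The shares are parts of the same sum and so depend on each other. All light chains together per Slc3a2 gave 1.41 at 0 h, 3.23, 3.28 and 3.31 in the controls and 4.76, 5.3 and 5.03 under DTPA, a 1.54-fold higher ratio under DTPA (exact permutation p = 0.1).

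**Figure D3:**
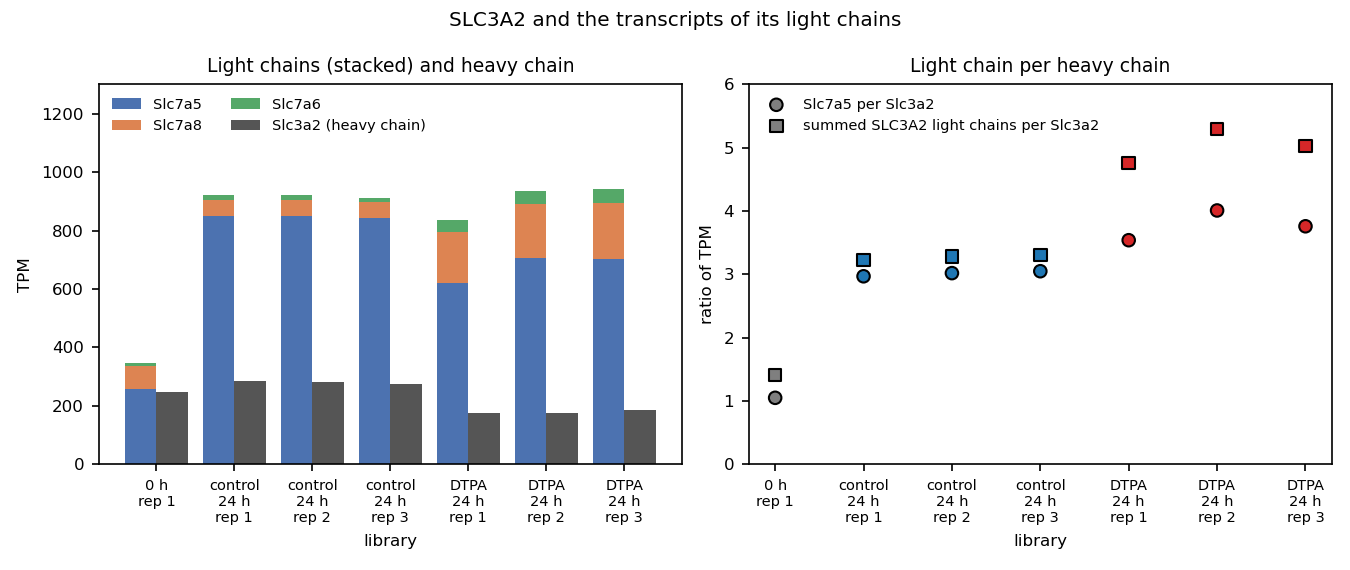
Left, TPM of the light chain genes Slc7a5, Slc7a8 and Slc7a6 stacked beside the heavy chain gene Slc3a2 in each of the 7 libraries. Right, the ratio of TPM of Slc7a5 (circles) or of all light chains (squares) to Slc3a2, coloured by group (grey 0 h, blue control, red DTPA); the summed ratio is 1.41 at 0 h, 3.23 to 3.31 in the controls and 4.76 to 5.3 under DTPA.

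Slc7a6 encodes y+LAT2, a light chain that sends cationic amino acids such as arginine out in exchange for neutral ones with sodium. It was the 1 tested member that was higher under DTPA, and its promoter sequence is shown for that reason. The gene lies on chromosome 8 from 106168857 to 106198706 on the plus strand. The 120 bases before the first of its start sites in the RefSeq table (GRCm38.p6, chr8:106168734-106168853, plus strand) hold none of the motifs searched.

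Slc7a6 upstream: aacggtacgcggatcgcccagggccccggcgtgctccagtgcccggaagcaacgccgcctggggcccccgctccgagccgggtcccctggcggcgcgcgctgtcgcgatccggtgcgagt

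Slc7a6 stood at 11.5 TPM at 0 h, at 17.9, 19.4 and 16.6 TPM in the controls and at 43.5, 44.6 and 46.9 TPM with DTPA. Every DTPA library held more than any control, and every control more than the 0 h library. Mean TPM was 2.5-fold higher under DTPA than in the controls, a log2 fold change of 1.28 ± 0.0667 (limma adjusted p = 3.49e-06). The step from 0 h to control, 0.60 ± 0.0938 (adjusted p = 0.00164), was under the minimum fold. From 0 h to DTPA the log2 fold change was 1.88 (adjusted p = 9.52e-06).

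Slc7a1 encodes CAT1, the main importer of arginine and lysine in many cells and the receptor of ecotropic mouse leukemia virus. It fell at both steps. The gene spans 148327410 to 148399904 of chromosome 5, minus strand, and the 120 bases before the first of its RefSeq start sites (GRCm38.p6, chr5:148399905-148400024, minus strand) are shown as those of a carrier that moved opposite to Slc7a6. They also hold none of the motifs searched.

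Slc7a1 upstream: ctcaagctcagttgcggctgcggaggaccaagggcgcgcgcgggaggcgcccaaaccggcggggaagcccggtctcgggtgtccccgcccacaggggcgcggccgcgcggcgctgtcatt

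Slc7a1 went from 73.6 TPM at 0 h to 17.5, 16.0 and 18.7 TPM in the controls and 6.96, 7.81 and 7.82 TPM under DTPA. No DTPA library reached the lowest control. The log2 fold change was -2.02 ± 0.109 for differentiation (limma adjusted p = 1.61e-05) and -1.11 ± 0.081 for DTPA against control (adjusted p = 1.93e-05). Over both steps mean TPM was 9.77-fold lower under DTPA than at 0 h. In the controls the cationic pair Slc7a1 and Slc7a6 stood at overlapping levels, 17.4 ± 1.34 and 18.0 ± 1.41 TPM. Under DTPA they stood apart, at 7.53 ± 0.494 and 45.0 ± 1.74 TPM.

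Promoters of the members were read in the RefSeq windows from 250 bases before to 50 bases after the start site, on both strands, and 7 of the 10 members had a window, with 9 windows in all. The E-box CACGTG lay at bases -30 to -25 of Slc38a5 and -64 to -59 of Slc43a1, and 7.15% of all 32851 windows of the same length hold it. In each of these genes the E-box falls inside the GENCODE span of the gene. The C/EBP-ATF response element TGATGNAA, the type through which ATF4 is known to act on amino acid response genes, lay across the start site of Slc1a4 on the strand opposite to the gene (bases -4 to 3), and 3.97% of all windows hold it. A GATA motif (searched as AGATAA or its variant AGATAG, and as TGATAA or its variant TGATAG) lay at bases 14 to 19 of Slc38a5 as AGATAG, and 29.8% of all windows hold one. The metal response element (searched as TGCACNC or, with another middle base, as TGCGCNC) was in the windows of 0 of the 7 members and in 25.7% of all windows. These are matches of letters and not measured binding, and the windows do not reach distal elements.

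Measured as shares of the 10 genes' summed TPM, which do not depend on library scaling, the make-up shifted at both steps. Slc7a5 held 36.2% at 0 h, 48.9% ± 0.336 in the controls and 57.4% ± 1.53 under DTPA. Slc38a5 held 0.484% at 0 h, 28.6% ± 0.382 in the controls and 19.7% ± 0.958 under DTPA. Slc3a2 went from 34.5% to 16.2% ± 0.241 and 15.3% ± 0.616. Slc7a5 and Slc38a5 thus made up most of the sum in both 24 h groups. Slc7a6 held 1.61%, 1.04% ± 0.084 and 3.81% ± 0.113, and Slc1a5 4.11%, 2.1% ± 0.12 and 0.845% ± 0.0681. Control and DTPA libraries did not overlap in any of the 8 shares tested (exact permutation p = 0.1 each). The shares are parts of the same sum and so depend on each other. Those of Slc7a5 and Slc38a2 (2.03% in the controls, 2.31% under DTPA) were higher under DTPA although their TPM were lower. Slc1a4, which missed the filter for DTPA against control, is among the 8.

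**Figure D4:**
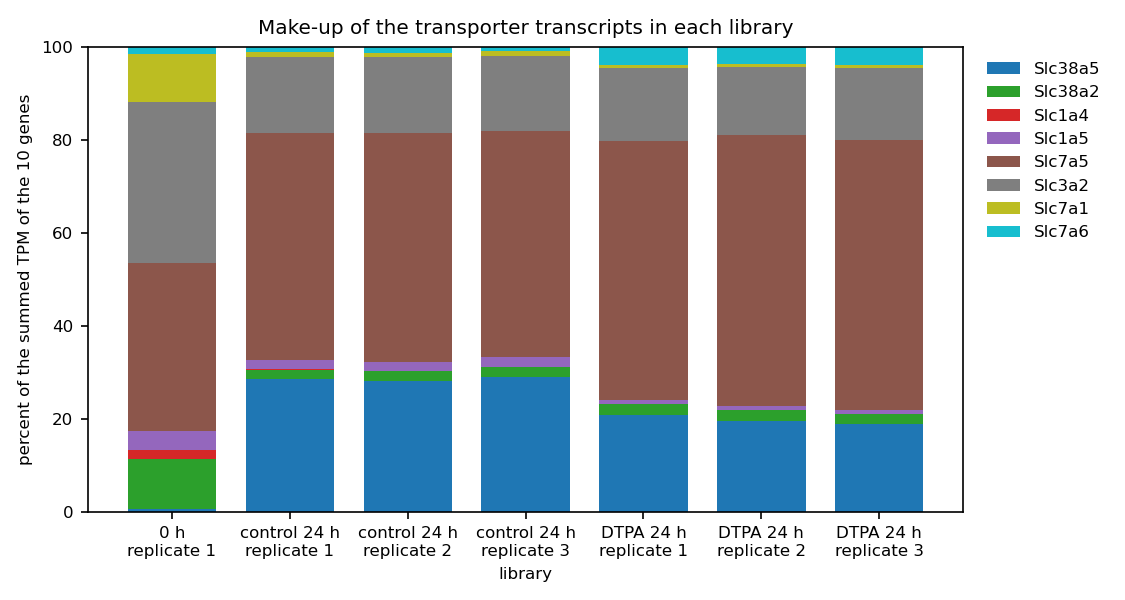
Percent of the summed TPM of the 10 genes held by each gene (vertical axis, stacked) in each of the 7 libraries (horizontal axis). Genes under 0.5% in every library are left out; Slc38a5 widens from 0.484% at 0 h to a mean of 28.6% in the controls and 19.7% under DTPA, while Slc7a5 holds the largest share throughout.

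Other amino acid carriers of the plasma membrane were few in these cells. Of 37 further genes, 20 were listed at 0 in all libraries, 12 stayed under 1 TPM and 5 reached it. Under DTPA all 5 were called, 3 higher and 2 lower, with a median log2 fold change of 0.56, beside 58.1% of all tested genes called, 21.7% higher and 36.4% lower. Slc43a2, which encodes the LAT3 relative LAT4, rose from 13.2 ± 0.964 to 91.9 ± 6.21 TPM with a log2 fold change of 2.71 ± 0.072 (limma adjusted p = 1.69e-07), from 2.17 TPM at 0 h. Slc7a8 also rose, as given above, and so did Slc38a6, from 7.66 ± 1.21 to 11.7 ± 1.4 TPM (limma adjusted p = 0.00597). Slc6a9, the glycine carrier GLYT1, fell from 50.2 ± 0.793 to 28.5 ± 2.02 TPM (log2 fold change -0.80, adjusted p = 2.07e-05), with 18.6 TPM at 0 h. Slc16a10, the aromatic amino acid carrier TAT1, fell by 0.30 on the log2 scale (adjusted p = 0.000317) after a rise of 2.14 with differentiation. Carriers of large neutral amino acids thus moved in both directions under DTPA, Slc7a5 down and Slc7a8 and Slc43a2 up.

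Lysosomal amino acid carriers included the arginine sensor gene Slc38a9, which rose under DTPA. Of 7 tested, 1 was higher, 4 were lower and 2 were not called, with a median log2 fold change of -0.19; with median-of-ratios scaling 2 were higher and 2 lower. That is 5 called of 7, beside 58.1% of all tested genes. Slc38a9, of the SLC38 family, went from 6.94 ± 1.07 to 11.2 ± 0.723 TPM (limma adjusted p = 0.00178). Mfsd12, needed for cysteine import into lysosomes, fell from 51.0 ± 3.27 to 31.8 ± 0.291 TPM (adjusted p = 4.15e-05). Slc15a4, a carrier of histidine and small peptides, had a log2 fold change of -0.32 (adjusted p = 0.00656). Slc36a1, the proton-coupled carrier PAT1, had -0.27 (adjusted p = 0.00824), a call lost with median-of-ratios scaling (0.0566) and quantile normalization (0.125). With differentiation 3 of 8 tested rose, among them the cystine exporter gene Ctns (3.8) and Slc36a1 (2.76), and 1 fell. Of all tested genes 15.1% rose and 24.3% fell. The 1 that fell, Slc29a3, was named after its values were seen and encodes a nucleoside carrier of lysosomes, not an amino acid carrier. It was tested through its level in the single 0 h library alone, so its fall carries no weight. With quantile normalization 5 rose and 0 fell.

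Among genes of the amino acid response, Shmt2, Pck2, Mthfd2 and Asns had the largest changes under DTPA, all downward. Of 17 tested genes on that list, 1 was higher, 9 were lower and 7 were not called under DTPA (median log2 fold change -0.21), and 3 were higher and 8 lower of 17 with differentiation. The 10 called under DTPA are close to the 58.1% called over all tested genes, and the differentiation counts stand beside 15.1% higher and 24.3% lower. With quantile normalization 4 were higher and 8 lower under DTPA. Shmt2, the mitochondrial serine hydroxymethyltransferase, went from 776 TPM at 0 h to 177 ± 5.35 TPM in the controls and 64.8 ± 5.91 TPM under DTPA (log2 fold change -1.44 ± 0.0671 for DTPA against control, limma adjusted p = 2.02e-06). Asns, asparagine synthetase, went from 1027.33 TPM to 418 ± 9.63 and 229.8 ± 3.08 TPM (-0.86, adjusted p = 1.08e-06). Pck2 and Mthfd2, both mitochondrial enzymes, had log2 fold changes of -1.08 and -0.92. These 4 genes stood in the order of Slc7a1 and Slc38a2, highest at 0 h and lowest under DTPA. Atf4 itself was at 160 TPM at 0 h, 89.6 ± 3.95 TPM in the controls and 87.8 ± 2.41 TPM under DTPA, with -0.03 as the log2 fold change of DTPA against control (95% confidence interval -0.14 to 0.08, adjusted p = 0.62); it was named after its values were seen. ATF4 is known to be controlled largely at translation, which these data do not measure. Ppp1r15a and Ddit3, both known from the stress response, rose with differentiation by 3.81 and 2.35 on the log2 scale, while the stress genes Trib3 and Cebpb, added here after their values were seen, had -2.27 and -1.19.

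Of the 4 kinases that phosphorylate eIF2α, the step that controls ATF4 translation, 3 were lower under DTPA, beside 36.4% of all tested genes, and 1 was not called. Eif2ak4, which encodes the amino acid sensor GCN2, went from 18.1 ± 1.13 to 13.0 ± 0.592 TPM (log2 fold change -0.44, limma adjusted p = 0.000969), and Eif2ak3 (PERK) had -0.43 (adjusted p = 0.00119). Eif2ak1, the heme-regulated kinase HRI, was the most abundant at 24 h and rose with differentiation from 68.0 to 501 ± 21.6 TPM (log2 fold change 2.86). Its value under DTPA was 435 ± 4.26 TPM (-0.20, adjusted p = 0.004), a call lost with median-of-ratios scaling (0.0893) and quantile normalization (0.235).

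Genes of mTORC1 and of amino acid sensing, the pathway that reads leucine and arginine, included the Rag GTPase genes Rragd and Rraga, which fell under DTPA. Of 35 tested, 4 were higher, 18 lower and 13 not called (median log2 fold change -0.18), so the 22 called are near the 58.1% of all tested genes; with median-of-ratios scaling 5 were higher and 10 lower, and with quantile normalization 6 and 9. Rragd, a Rag GTPase that recruits mTORC1 to lysosomes, had the largest change. It rose from 5.89 TPM at 0 h to 176 ± 3.86 TPM in the controls and was at 55.3 ± 1.49 TPM under DTPA (log2 fold change -1.65 ± 0.0399, limma adjusted p = 1.22e-07). The Rag GTPase gene Rraga went from 139 to 750.4 ± 17.4 and 466 ± 7.85 TPM (-0.69, adjusted p = 3.38e-06). Both were thus highest in the controls, like Slc38a5 and Slc7a5. Wdr59, a GATOR2 subunit, had 0.50 (adjusted p = 0.000902) and the S6 kinase gene Rps6kb1 -0.48 (adjusted p = 0.00061). Fnip1, a partner of folliculin, rose by 2.58 with differentiation.

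Enzymes of glutamine, arginine, proline and branched-chain amino acid metabolism changed in both directions. Of 16 tested under DTPA, 4 were higher, 8 lower and 4 not called (median log2 fold change -0.1), beside 21.7% higher and 36.4% lower of all tested genes. The least abundant of the 4 higher, at 1.13 ± 0.372 TPM in the controls, needed its DTPA libraries to pass the filter. The list had no stable direction, with 6 higher and 6 lower and a median of 0.02 under median-of-ratios scaling. Bcat2, the mitochondrial branched-chain aminotransferase, went from 178 ± 8.04 to 98.3 ± 5.91 TPM (log2 fold change -0.85, limma adjusted p = 1.21e-05). Odc1, the first enzyme of polyamine synthesis, and Got1, a cytosolic aspartate aminotransferase, had log2 fold changes of -0.80 and -0.65. With differentiation Gls2, a glutaminase, went from 12.03 to 0.23 ± 0.0755 TPM, a gene tested through its level in the single 0 h library alone, and Bckdhb, a subunit of the branched-chain keto acid dehydrogenase, had -2.28.

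**Figure D5:**
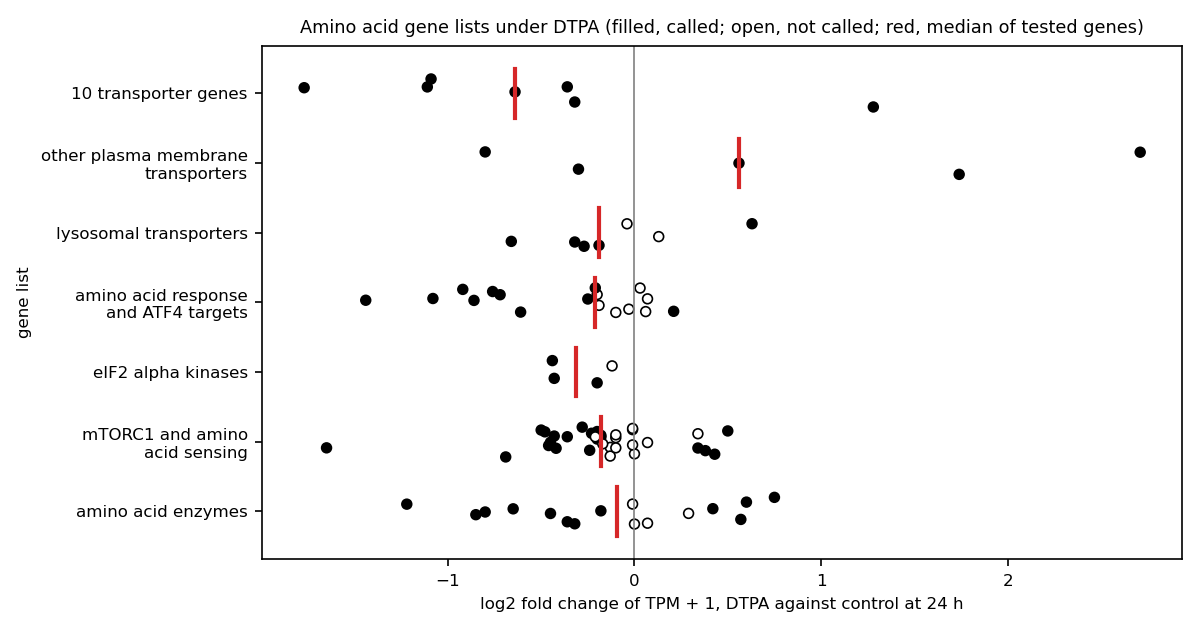
Log2 fold change of TPM + 1 for DTPA against control at 24 h (horizontal axis) of each tested gene in 7 lists (vertical axis, points spread within a list for legibility). Filled points are called, open points are not, and the red line is the median of the tested genes; it is -0.64 for the 7 tested of the 10 transporter genes, 0.56 for the other plasma membrane carriers and between -0.31 and -0.1 for the remaining lists.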

How the data were processed

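Messenger RNA was sequenced from 7 libraries (Illumina TruSeq Stranded mRNA, per the labels' protocols). Per the submitters' processing notes, reads were handled with Trimmomatic 0.33, FastQC, HISAT2 2.1.0, featureCounts and edgeR on mm10; for the annotation, strand setting, gene lengths and multi-mapping reads, the choices are not given in the sources used here. Values in the authors' deposited tables are TPM per gene symbol. This unit fixes each library's total, so abundant genes that rise lower all others. From 55487 rows, 114 symbols on 234 rows were summed. Depth was estimated from low TPM values and GENCODE M21 exon lengths; 98.8% to 99.2% of the low values lay within 0.1 of whole reads. Tests used limma 3.58.1 (R 4.3.3) on log2(TPM + 1), eBayes with trend, two-sided, Benjamini-Hochberg over all genes tested, threshold 0.05; this scale understates changes of low genes. DTPA and control were compared in 6 libraries, over genes with at least 1 TPM in 3 of them. Comparisons with 0 h fitted the 3 groups of all 7 libraries and took genes whose mean reached 1 TPM in either group. Ratios and shares used exact permutation tests. The fits were also run on simulated data that gave each gene the same spread in every library. That run could not check whether the single 0 h library varied like the other groups. Promoters are from RefSeq; protein sequences were not analysed here.

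The 10 members and all lists were chosen with earlier results of these data known. From each other amino acid list, up to 4 called genes with the largest change under DTPA and up to 2 with the largest change with differentiation are named (if the higher group's mean reached 5 TPM); 1 gene that this rule takes is not reported here. Alternatives were other pseudocounts, filters and scalings, no variance trend, a replicate block and leaving out each 24 h library.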

Additional observations from a re-analysis of the deposited data

How the results depend on the processing

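Among the members and the genes named by the rule above, no call reversed under any alternative tried. Medians near 0 did: under DTPA that of all genes went from -0.09 to 0.02 and 0.01, and that of the enzyme list from -0.1 to 0.02 and 0.05, with median-of-ratios scaling and quantile normalization. The calls went from 2415 higher and 4059 lower to 3246 and 3127, and to 3192 and 3111. The 7 calls of members under DTPA held under each pseudocount, scaling and filter tried, without the variance trend and without each 24 h library in turn. With the replicate number as a block, 2274 genes were higher and 3888 lower under DTPA, and the members stayed at 1 higher and 6 lower. Same-numbered control and DTPA libraries deviated with correlations of -0.01, 0.024 and -0.01, so no shared deviation was seen. This cannot settle whether same-numbered libraries came from the same culture or batch.

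Over all genes, the median log2 fold change moved from -0.22 to -0.07 and -0.01 for control against 0 h, and from -0.3 to -0.04 and -0.01 for DTPA against 0 h, with median-of-ratios scaling and quantile normalization. The share of higher calls moved from 38.3% to 45.3% and 48.6% in the first and from 36.3% to 47.6% and 49.0% in the second. The summed light chains per Slc3a2 differed by 0.62 on the log2 scale between DTPA and control, and by 0.38 with Slc7a5 and Slc7a6 only. Without Slc3a2 in the sum, the share of Slc38a5 differed by -10.9 percentage points and that of Slc7a6 by 3.26, against -8.91 and 2.77 with it. When a change of at least 2-fold was also asked for, an alternative chosen after seeing the data, 392 genes were higher and 580 lower under DTPA. In windows of 250 bases before the start only, the C/EBP-ATF element of Slc1a4 and the GATA motif of Slc38a5 had 0 matches. The depth limits Slc38a1, Slc43a1 and, at 24 h, Slc1a4.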
